A study of Mus musculus with 10 samples.

Results

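The genes described here mark macrophages or take up modified lipoproteins and dying cells: Lyz2, Csf1r, Cd68, Emr1, Msr1, Marco, Olr1, Scarb1, Stab1 and Cd5l. They were taken by gene name from the annotation of the arrays, which gave 10 genes with 16 non-control probes, of 34797 gene names and 55681 non-control probes in all. Their RNA was measured in epididymal white adipose tissue (WAT), the fat pad along the epididymis, of 10 adult male mice that formed 1 group. The strain is given as C57BL/6JOlaHsd in the treatment text and as C57BL/6J among the sample characteristics. All mice were kept at thermoneutrality, 29 degrees C, and received a purified low fat diet for 3 weeks and then a high-fat diet (HFD) for 12 weeks. Each was then injected once a day for 5 days with Desferrioxamine (DFO), an iron chelator, at 100 mg/kg body weight, and was decapitated on day 6 after 2 h without food. The uninjected control mice were not analysed here, so no value below is an effect of DFO. Every mouse was hybridized in Cy5 on an array of its own against 1 common Cy3 pool, which held RNA of all mice of the wider study with the controls, and the dyes were not swapped.

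Macrophages are phagocytes that live in every tissue, and in fat they clear dead adipocytes and take up the lipid these release. They are recognised by surface and lysosomal proteins that nearly all of them share, and they depend on signals through the receptor encoded by Csf1r. Scavenger receptors are a structurally mixed set of proteins that bind oxidised or acetylated lipoproteins, bacteria and cell debris, and some of them are also found on endothelium, adipocytes and steroid-producing cells.

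Each log2 ratio below is the log2 of Cy5 over Cy3 after normalization, so 0 means a mouse at the level of the pool and a difference of 1 between mice is a 2-fold difference. A gene with several probes is given by its brightest probe, and the ratios themselves were compared between mice. Ranges, SDs and slopes are also set side by side between genes, though these differed between probes of a gene too. The mice parted on the first principal component of all expressed probes, which held 75.1% of the variance: mice 4 to 7 lay apart from mice 1, 2, 3, 8, 9 and 10 by a gap of 0.513 of its range. The 10 arrays lay on 5 slides of 2 arrays, in pairs of successive mice, and mice 3 and 4 shared a slide, as did mice 7 and 8. Median Cy5 signals were between 54.8 and 81.3 and median backgrounds between 32 and 37, and no spot was saturated. In bulk tissue, fewer macrophages and less RNA per macrophage cannot be told apart.

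The array probes are single strands of 60 bases whose annotated positions are on the mouse build mm9. The 5′ 30 bases are shown for some of the genes whose values the results turn on, to show what each ratio was read from, with no base marked. The Emr1 probe was at chr17:57622868-57622927, plus strand, that of Cd68 at chr11:69477775-69477834, minus strand, that of Lyz2 at chr10:116719175-116719234, minus strand, that of Msr1 at chr8:40689158-40689217, minus strand and that of Cd5l at chr3:87174823-87174882, plus strand. The Marco probe was listed at chr1:122371115-122371134, minus strand, a stretch shorter than the probe. Whether these positions are exonic, intronic or in a UTR was not looked up, since no annotation of mm9 was used here.
Emr1: ggtgttccagaaattctcatttaataccca
Cd68: gcctcatctcttcaccatgccactgactca
Lyz2: aacgttgtgagtttgccagaactctgaaaa
Msr1: aagtcatcttacatccaaaactacacgtat
Cd5l: atggtagagacttgaggagttgggacctcg
Marco: gagcccgagaggtcatcagtgtgtccccag

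Upstream sequence from RefSeq (build GRCm38.p6) was at hand for 6 of the 10 members, and 4 of them are shown as the 250 bases before the annotated start, in the direction of the gene. These 4 serve to set genes that followed Emr1 beside Marco, which did not pass that test. Capitals mark GAGGAA, the core bound by PU.1, a transcription factor of myeloid cells, and TGANTCA, the site of AP-1, searched on both strands. The windows were chr11:69666171-69666420, minus strand for Cd68, chr10:117282273-117282522, minus strand for Lyz2, chr3:87357631-87357880, plus strand for Cd5l and chr1:120505025-120505274, minus strand for Marco.
Cd68: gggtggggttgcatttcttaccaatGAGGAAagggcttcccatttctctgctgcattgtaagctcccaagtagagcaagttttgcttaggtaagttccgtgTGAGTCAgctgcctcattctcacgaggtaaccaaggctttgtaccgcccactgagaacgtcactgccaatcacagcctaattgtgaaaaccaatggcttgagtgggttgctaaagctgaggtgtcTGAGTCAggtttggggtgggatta
Lyz2: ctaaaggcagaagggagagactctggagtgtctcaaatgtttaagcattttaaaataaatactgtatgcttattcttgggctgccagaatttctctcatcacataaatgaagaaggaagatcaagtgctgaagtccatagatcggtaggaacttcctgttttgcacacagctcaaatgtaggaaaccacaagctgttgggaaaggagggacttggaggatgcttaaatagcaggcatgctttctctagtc
Cd5l: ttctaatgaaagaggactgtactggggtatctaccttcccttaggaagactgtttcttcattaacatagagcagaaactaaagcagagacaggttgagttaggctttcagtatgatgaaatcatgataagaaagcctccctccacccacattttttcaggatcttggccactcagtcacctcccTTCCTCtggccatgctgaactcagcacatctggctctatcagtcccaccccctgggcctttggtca
Marco: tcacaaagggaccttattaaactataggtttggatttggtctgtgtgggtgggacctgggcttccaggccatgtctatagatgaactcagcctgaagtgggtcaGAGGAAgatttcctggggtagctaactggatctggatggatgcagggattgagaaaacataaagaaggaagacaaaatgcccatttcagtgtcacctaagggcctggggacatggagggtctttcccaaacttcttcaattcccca
The PU.1 core was found in 5 of the 6 windows, all but that of Lyz2, and in 23.3% of 32851 RefSeq windows of the same length. The AP-1 site was found 2 times in the Cd68 window, 142 and 17 bases before the start, and 1 time in that of Olr1, and 6.75% of all windows held it. These are matches of letters, and the arrays hold no measurement of binding.

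Emr1, Cd68, Lyz2 and Csf1r, the genes of general macrophage identity, were high in mice 4 to 7 and low in mice 8, 9 and 10. Emr1, now named Adgre1, encodes an adhesion receptor on the cell surface by which mouse macrophages are usually recognised. Its log2 ratio was -0.41 in mouse 1, 0.05 in mouse 2, -0.40 in mouse 3, 1.34 in mouse 4, 1.51 in mouse 5, 1.23 in mouse 6, 1.56 in mouse 7, -0.84 in mouse 8, -1.52 in mouse 9 and -1.05 in mouse 10. Mice 4 to 7 lay within 0.32 of each other and above all the others, and the highest and the lowest mouse differed 8.41-fold. Its other probe gave the same lowest and highest mouse, at -1.62 and 1.33, and the difference between the probes had an SD of 0.14 over the mice.

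Cd68 encodes a glycoprotein of the late endosomes and lysosomes of macrophages. In log2 ratio Cd68 was at -0.73, -0.10 and -0.18 in mice 1 to 3, 0.76, 0.82, 0.65 and 0.99 in mice 4 to 7, and -0.66, -1.39 and -1.24 in mice 8 to 10. The range was 5.21-fold by this probe and 5.84-fold by the other.

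Lyz2 encodes the lysozyme of macrophages and neutrophils. Lyz2 had a log2 ratio of -0.35, -0.14 and -0.43 in mice 1 to 3, 1.06, 0.75, 0.58 and 0.99 in mice 4 to 7, and -0.63, -0.92 and -0.76 in mice 8 to 10, a 3.95-fold range. Lyz2 has a near-identical paralog, Lyz1, with a probe of its own on the array, and how far each probe also binds the other transcript is not known here. Csf1r, the receptor for colony stimulating factor 1 and interleukin 34, varied least of these genes. The log2 ratio was here -0.18, 0.03 and -0.06 in mice 1 to 3, 0.40, 0.53, 0.46 and 0.63 in mice 4 to 7, and -0.41, -0.57 and -0.36 in mice 8 to 10, a 2.29-fold range. The other Csf1r probes had ranges of 2.22-fold and 2.03-fold, and their 4 highest mice were also mice 4 to 7.

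**Figure D1:**
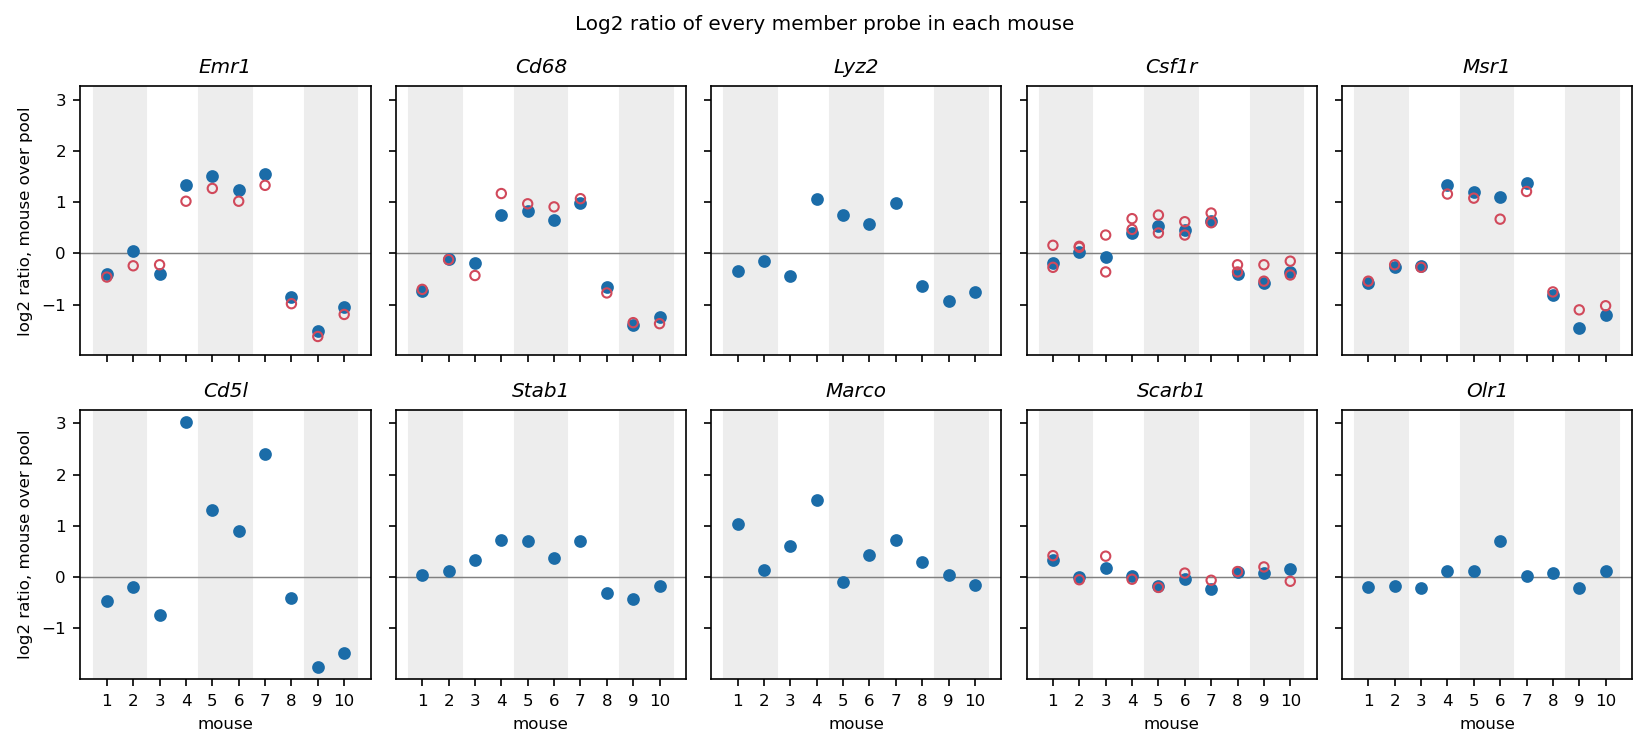
Log2 ratio of each mouse over the pool (vertical axis) for the 10 mice (horizontal axis), with 1 panel a gene. Filled points are the brightest probe, open points the other probes of the gene, and bands of shading alternate between the 5 slides. Emr1, Cd68, Lyz2, Csf1r, Msr1, Cd5l and Stab1 had their 4 highest values in mice 4 to 7, while Marco was highest in mouse 4 at 1.50 and Scarb1 in mouse 1 at 0.33.

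The scavenger receptors did not move as 1 group. Msr1, the class A receptor that macrophages use to take up modified low-density lipoprotein, followed the pattern of Emr1. The log2 ratios of Msr1 were -0.58, -0.26 and -0.24 in mice 1 to 3, 1.34, 1.20, 1.11 and 1.37 in mice 4 to 7, and -0.81, -1.45 and -1.20 in mice 8 to 10. That is a 7.05-fold range, and it was 4.95-fold by the other Msr1 probe.

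Cd5l, a secreted protein of tissue macrophages with scavenger receptor cysteine-rich domains, had the widest range of the members, 27.5-fold. By mouse the log2 ratio was -0.47, -0.20 and -0.73 in mice 1 to 3, 3.03, 1.31, 0.90 and 2.40 in mice 4 to 7, and -0.40, -1.75 and -1.48 in mice 8 to 10. Within mice 4 to 7, where Emr1 spanned 0.32, Cd5l spanned 2.13, with mice 4 and 7 far above mice 5 and 6. Cd5l has 1 probe on the array, so this spread was not checked by another.

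Stab1 encodes stabilin-1, a scavenger receptor of macrophages and some endothelium. For Stab1 the log2 ratio was 0.05, 0.12 and 0.33 in mice 1 to 3, 0.72, 0.70, 0.38 and 0.70 in mice 4 to 7, and -0.31, -0.43 and -0.17 in mice 8 to 10. Mouse 6 at 0.38 and mouse 3 at 0.33 were almost level, so the 2 sets of mice were barely parted.

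Marco, a class A receptor with a collagen-like stalk, had another order of mice. Marco stood at a log2 ratio of 1.04, 0.14 and 0.60 in mice 1 to 3, 1.50, -0.10, 0.43 and 0.73 in mice 4 to 7, and 0.29, 0.04 and -0.15 in mice 8 to 10. Mouse 1 was second to mouse 4, and mouse 5, one of the highest in Emr1, was among the lowest.

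Scarb1 encodes the class B receptor for high-density lipoprotein (HDL), which is also made by adipocytes and steroid-producing cells. The mice had Scarb1 log2 ratios of 0.33, 0.01 and 0.18 in mice 1 to 3, 0.03, -0.18, -0.04 and -0.23 in mice 4 to 7, and 0.11, 0.09 and 0.16 in mice 8 to 10. The whole range was 1.47-fold, the narrowest of the members, and the sets of mice overlapped at mice 2 and 4.

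Olr1, the lectin-like receptor for oxidised low-density lipoprotein, was close to the background. Its Cy5 signal was well above background in mice 4, 5, 6 and 7 and in no other mouse, and Cy3 on 1 array. Its raw Cy5 signal was 36.9 in the lowest mouse and 64.7 in the median of the mice, against local backgrounds of 31 to 37. Its log2 ratio was between -0.21 in mouse 3 and 0.71 in mouse 6, with a median of 0.05. As it was not well above background on at least 5 arrays, Olr1 was left out of the tests across probes.

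For 7 of the members, all but Marco, Scarb1 and Olr1, the 4 highest log2 ratios were those of mice 4 to 7, an order shared by 17.9% of the 27716 expressed probes, while 21.3% had their 4 lowest ratios in these mice. These mice were not tested against the others, since they were set apart by the arrays and not by a label. For these 7 genes that order fixes which mouse of a shared slide is higher, so the differences within slides describe size alone. Between mice 3 and 4 of 1 slide, the log2 ratio was higher in mouse 4 by 1.74 for Emr1, 0.93 for Cd68, 1.49 for Lyz2, 0.46 for Csf1r, 1.58 for Msr1, 3.76 for Cd5l and 0.39 for Stab1. Between mice 7 and 8 of another slide, it was higher in mouse 7 by 2.39 for Emr1, 1.65 for Cd68, 1.62 for Lyz2, 1.03 for Csf1r, 2.18 for Msr1, 2.80 for Cd5l and 1.01 for Stab1. Scarb1 was lower in mice 4 and 7 than in their slide partners, with differences of -0.15 and -0.34. No expressed probe passed limma's moderated F test between slides after Benjamini-Hochberg adjustment, and 1137 of 27716 had an unadjusted p under 0.05. When a mouse was left out, that unadjusted count lay between 235 without mouse 9 and 5839 without mouse 8. With 2 arrays a slide, and mice of both sets on some slides, this test could miss differences between slides.

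Whether a member varied more between mice than the same probe varied between repeats of the pool was tested on log2 Cy5 against log2 Cy3 by the test of Pitman and Morgan for variances of paired values. All 9 members that were well above background in both dyes varied more in Cy5, as did 59.7% of 25049 probes tested. The SD of log2 Cy5 was 1.66 for Cd5l, 1.15 for Msr1, 1.12 for Emr1, 0.93 for Cd68, 0.92 for Lyz2, 0.55 for Marco, 0.49 for Stab1, 0.44 for Csf1r and 0.18 for Scarb1. In Cy3 the same probes had SDs between 0.05 and 0.18. Over all probes tested the median SD was 0.199 in Cy5 and 0.0813 in Cy3, so Scarb1 varied less than the median probe and the others more. The adjusted p was between 2.64e-08 for Msr1 and 0.00176 for Scarb1. The test sets separate mice against repeats of 1 pool, so it says only that a probe varied beyond the noise of hybridization and scanning. The Cy3 pool was mixed after labelling, so the Cy5 spread also holds the labelling of each mouse's RNA, and a wider Cy5 spread follows from the design itself for many probes. Without normalization between arrays 5 of the 9 passed, and the adjusted p became 0.0703 for Csf1r, 0.0598 for Marco, 0.0965 for Stab1 and 0.855 for Scarb1. Under median centring Scarb1 alone did not pass, at an adjusted p of 0.777.

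**Figure D2:**
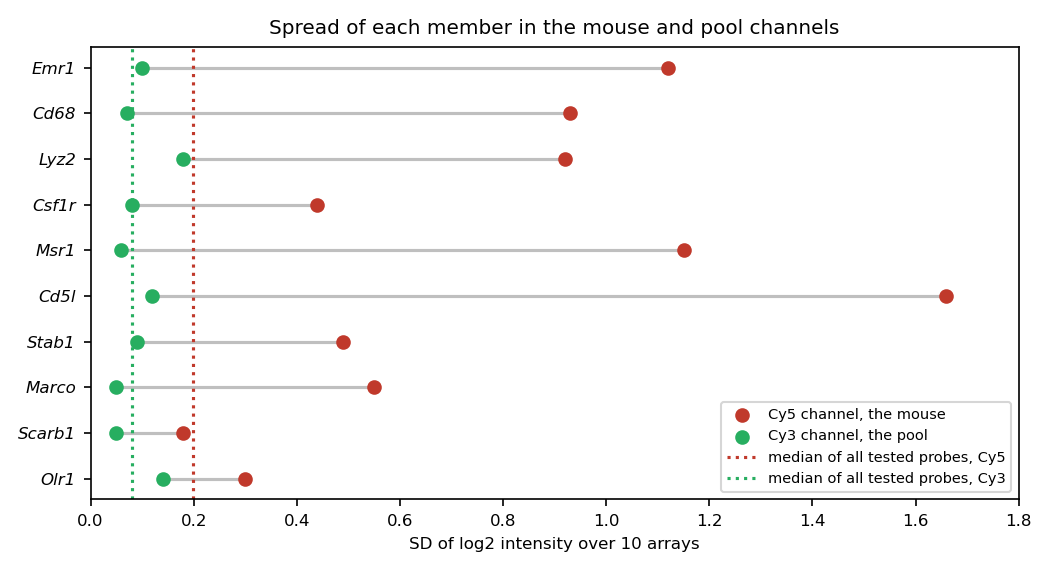
SD of the log2 intensity over 10 arrays (horizontal axis) of each member's brightest probe, with red points for Cy5, the mouse, and green points for Cy3, the pool. Dotted lines are the medians of all tested probes, at 0.199 in Cy5 and 0.0813 in Cy3. Cd5l had the widest Cy5 spread at 1.66 and Scarb1 the narrowest at 0.18, and Olr1 is drawn but was not tested.

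To describe how the members moved together, each expressed probe was fitted with limma on the log2 ratio of Emr1, with the probes of Emr1 left out and p-values adjusted over all probes. The slope is the change in log2 ratio per unit change of Emr1. Emr1 was 1.23 or more in mice 4 to 7 and 0.05 or less in the others. The p-values over 10 mice therefore do not separate a graded relation from the distance between these 2 sets. Over 10 mice, 6 of the 8 members tested rose with Emr1 and 1 fell, while over all probes 23.5% rose and 26.5% fell, that is 6523 and 7347 probes, against 5945 and 2844 under median centring. The median slope of the 8 members was 0.50, against -0.003 over all probes. The slope was 0.64 ± 0.04 (SE) for Lyz2, with an adjusted p of 7.1e-08. It was 0.74 ± 0.05 (SE) for Cd68 and 0.94 ± 0.04 (SE) for Msr1, with adjusted p of 9.6e-08 and 1.4e-08 by limma. Csf1r rose by 0.37 ± 0.03 (SE, adjusted p = 2.1e-07), Stab1 by 0.34 ± 0.04 (SE, adjusted p = 1.6e-05) and Cd5l by 1.27 ± 0.15 (SE, adjusted p = 1.3e-05), all from limma. Marco had a slope of 0.17 ± 0.12 (SE), which did not pass limma's test at an adjusted p of 0.27. It was 0.06 without mouse 4 and 0.29 without mouse 5, with adjusted p of 0.66 and 0.054 by limma. Scarb1 fell with a slope of -0.11 ± 0.03 (SE), at an adjusted p of 0.021 by limma.

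The fall of Scarb1 was the least stable of these calls. By its other probe the slope was -0.09 ± 0.05 (SE) with an adjusted p of 0.13 from limma. It was -0.04 with an adjusted p of 0.53 on the deposited normalized values, -0.13 with 0.11 with the slide as a block, -0.10 with 0.069 without mouse 5, -0.09 with 0.084 without mouse 7, and 0.01 with 0.96 under median centring in limma.

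Because the mice lay in 2 sets on the first component, the slopes were also fitted within mice 1, 2, 3, 8, 9 and 10. There Emr1 was -0.41, 0.05 and -0.40 in mice 1 to 3 and -0.84, -1.52 and -1.05 in mice 8 to 10. Mice 1 to 3 were on other slides than mice 8 to 10, and no fit in the 6 mice had the slide as a block. Emr1 also put the 6 mice in the same order as the first component, so these fits are not free of it. In these 6 mice 5 of the 8 members rose and none fell, while 1.68% of 27735 probes rose and 0.631% fell. The median slope was 0.47, against 0.01 over all probes. Lyz2 had a slope of 0.51 ± 0.08 (SE) and an adjusted p of 0.018 by limma, Cd68 0.87 ± 0.15 (SE) and 0.025, and Msr1 0.85 ± 0.12 (SE) and 0.015. For Cd5l the slope was 0.99 ± 0.20 (SE) with an adjusted p of 0.043, and for Csf1r 0.39 ± 0.08 (SE) with 0.049, both from limma. The other Csf1r probes had slopes of 0.36 and 0.34 with adjusted p of 0.11 and 0.20 by limma, so the call on Csf1r held for its brightest probe alone. Stab1 had a slope of 0.42 ± 0.12 (SE) with an adjusted p of 0.12, Marco 0.36 ± 0.24 (SE) with 0.52 and Scarb1 0.0046 ± 0.10 (SE) with 0.99, so these 3 did not pass limma's test in the 6 mice. For Scarb1 this SE is nearly as large as its slope over 10 mice, so the 6 mice leave its direction undetermined.

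**Figure D3:**
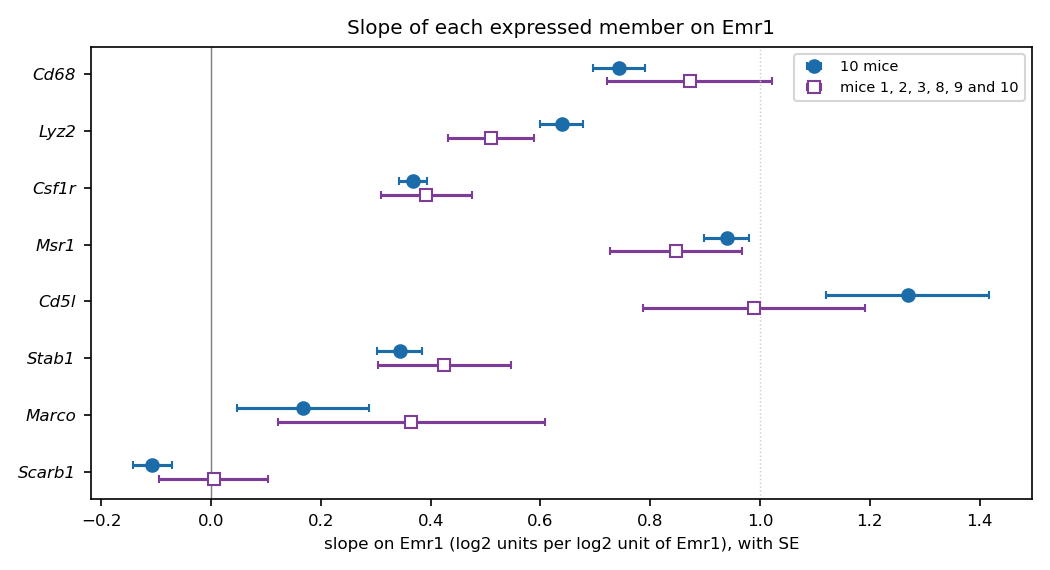
Slope of each expressed member on Emr1 (horizontal axis, log2 units per log2 unit of Emr1, bars are SE), with filled circles for 10 mice and open squares for mice 1, 2, 3, 8, 9 and 10. The dotted line is a slope of 1. Cd5l had the steepest slope in both fits, 1.27 and 0.99, and Scarb1 was -0.11 over 10 mice and 0.0046 over 6.

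In the same 6 mice, Pearson's r with Emr1 was 0.991 for Lyz2 (exact permutation p = 0.00278), 0.964 for Csf1r (exact p = 0.00694), 0.949 for Msr1 (exact p = 0.00417) and 0.913 for Cd68 (exact p = 0.00694). Spearman's rho was 0.943 for each of these 4 genes, with a 2-sided exact permutation p of 0.0167. By their other probes r was 0.878 and 0.771 for Csf1r, 0.948 for Msr1 and 0.934 for Cd68. For Stab1 r was 0.83 and rho 0.886 (exact permutation p = 0.0375 and 0.0333), and for Cd5l r was 0.87 and rho 0.771 (exact permutation p = 0.0222 and 0.103). Marco had an r of 0.468 and a rho of 0.543 (exact permutation p = 0.347 and 0.297), and Scarb1 an r of 0.0239 and a rho of 0.0286 (exact permutation p = 0.971 and 1.0). For Olr1, which was near background, r was -0.301 and rho -0.2 (exact permutation p = 0.585 and 0.714). These were 9 relations, and their p-values are unadjusted. The permutations took the 6 mice as exchangeable, though mice 1 and 2 shared a slide, as did mice 9 and 10. Without mice 2 and 9, the 2 farthest from the median of Emr1, r was 0.983 for Lyz2, 0.925 for Msr1, 0.885 for Csf1r, 0.801 for Stab1, 0.786 for Cd68 and 0.615 for Cd5l. Among the same 4 mice it was 0.923 for Marco, 0.655 for Scarb1 and -0.986 for Olr1, so these 3 weak relations rested on which mice were counted.

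Between the members themselves, r over the 6 mice lay between 0.724 and 0.991 for the 15 pairs of Lyz2, Csf1r, Cd68, Emr1, Msr1 and Cd5l. It lay between 0.239 and 0.931 for the 8 pairs with Stab1, between 0.414 and 0.757 for those with Marco and between -0.131 and 0.757 for those with Scarb1. These are descriptions, and all genes of a mouse share its array and its normalization.

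**Figure D4:**
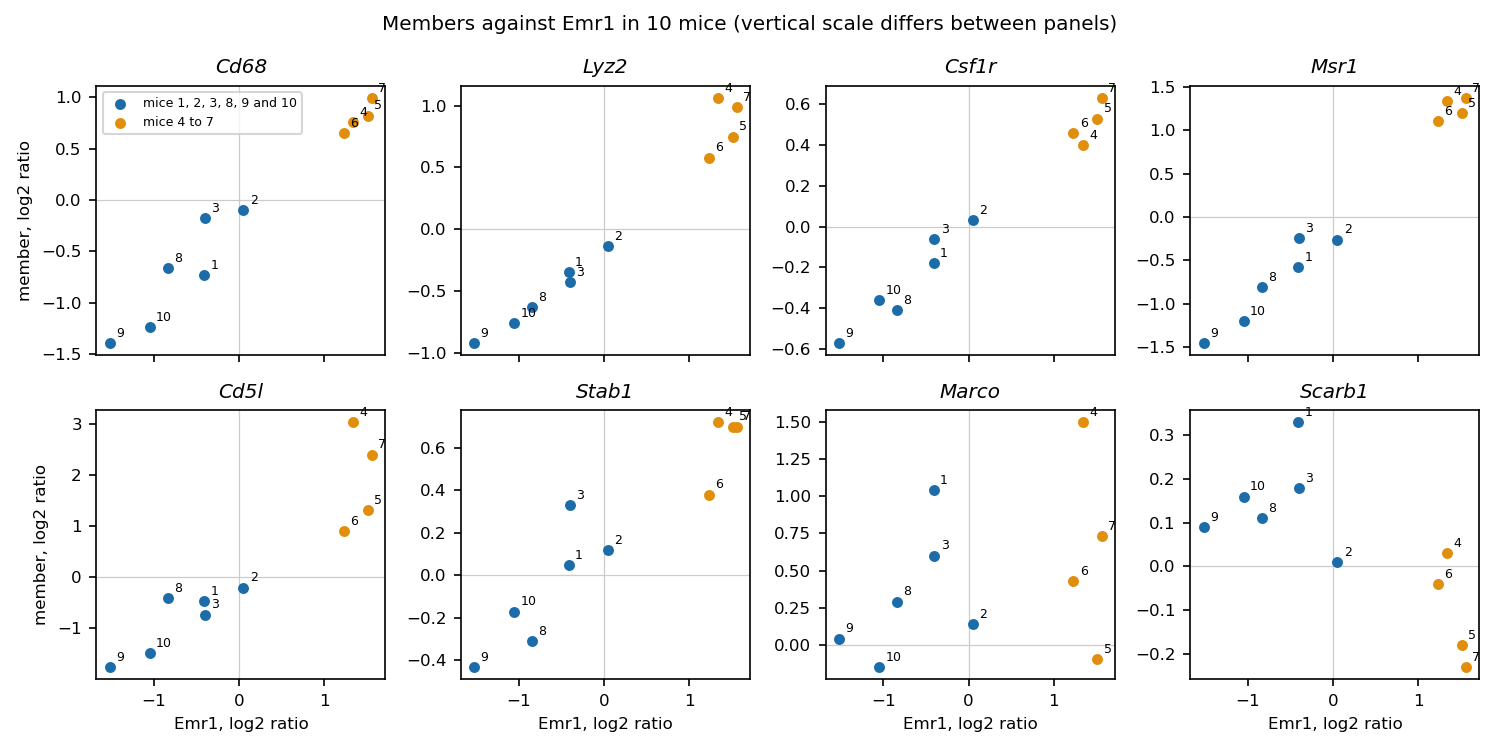
Log2 ratio of 8 members (vertical axis, own scale in each panel) against that of Emr1 (horizontal axis), with a numbered point for each mouse. Orange points are mice 4 to 7 and blue points the other 6 mice. Lyz2, Csf1r, Cd68 and Msr1 rose with Emr1 within the blue points too, Csf1r by its brightest probe alone, the one drawn. Cd5l ran from 0.90 to 3.03 among the orange points, and Marco and Scarb1 had no rise in the blue points that passed the test.

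Other genes of myeloid identity moved with the members. Of 28 expressed genes of a list of 30, 25 rose with Emr1 over 10 mice and none fell, with a median slope of 0.57 against -0.003 over all probes. Over all probes 23.5% rose and 26.5% fell. In mice 1, 2, 3, 8, 9 and 10, 19 of them rose and none fell, against 1.68% and 0.631% over all probes. The list was chosen with earlier results of these data known, so these counts are a description. Tyrobp, the signalling adaptor of many myeloid receptors, had a slope of 0.85 ± 0.03 (SE, adjusted p = 8.3e-09), and Ctss, a lysosomal protease, one of 0.90 ± 0.04 (SE, adjusted p = 1.4e-08), both from limma. The lowest r with Emr1 was that of Fcgr2b, the inhibitory receptor for immunoglobulin G, with a slope of -0.09 ± 0.07 (SE, adjusted p = 0.28 by limma), followed by Emr4, a relative of Emr1, at 0.04 ± 0.05 (SE, adjusted p = 0.53 by limma).

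Other scavenger receptors moved in both directions. Of 16 expressed genes of 20 listed, 10 rose with Emr1 over 10 mice and 4 fell, with a median slope of 0.17, and 3 rose in the 6 mice. Over all probes 23.5% rose and 26.5% fell over 10 mice, so the falls were near that share, and 1.68% rose in the 6 mice. Clec7a, the receptor for fungal beta-glucan, had a slope of 1.04 ± 0.06 (SE, adjusted p = 4.4e-08) and Stab2, the paralog of Stab1, 0.69 ± 0.06 (SE, adjusted p = 7.6e-07), both from limma, and both rose in the 6 mice as well. Cd163, the receptor for haemoglobin bound to haptoglobin, fell with a slope of -0.22 ± 0.04 (SE, adjusted p = 0.00097 by limma), and Cd209a, a lectin also used as a marker of dendritic cells, with -0.64 ± 0.08 (SE, adjusted p = 3.6e-05 by limma). In the 6 mice the slopes of Cd163 and Cd209a were -0.09 and -0.44, with adjusted p of 0.79 and 0.43 by limma. The Cy5 signal of Cd163 was well above background on 7 arrays and that of Cd209a on 10. With the slide as a block 6 of the 16 rose and 3 fell, as did 3788 and 4850 of 27714 probes. There Cd163 was no longer called, at -0.18 with an adjusted p of 0.061 by limma.

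Of the ligands and receptors of macrophage growth, 8 of 10 listed were expressed, of which 2 rose with Emr1 over 10 mice, 2 fell and none was called in the 6 mice, which is near the 23.5% and 26.5% over all probes. Csf2ra, a chain of the receptor for granulocyte-macrophage colony stimulating factor, had a slope of 0.36 ± 0.03 (SE, adjusted p = 3.1e-07 by limma). Il34, a ligand of Csf1r beside Csf1, fell with a slope of -0.44 ± 0.07 (SE, adjusted p = 0.00011 by limma), and its slope in the 6 mice was 0.08 with an adjusted p of 0.77 by limma. Under median centring 3 of the 8 rose and 1 fell, as did 5945 and 2844 of 27714 probes. There the slope of Csf3r turned from -0.12 to 0.04.

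Around Scarb1, 9 of 15 listed genes of HDL and cholesterol exchange were expressed, of which 3 rose with Emr1 and 4 fell over 10 mice. Over all probes 23.5% rose and 26.5% fell, and with 9 genes these counts are given as a description. Abcg1, which exports cholesterol to HDL, had a slope of 0.54 ± 0.04 (SE, adjusted p = 1.2e-07) and Pltp, the phospholipid transfer protein, 0.31 ± 0.03 (SE, adjusted p = 7.3e-07), both from limma. Cav1, the coat protein of caveolae, in which Scarb1 resides, fell with a slope of -0.77 ± 0.06 (SE, adjusted p = 6.8e-07 by limma) and fell in the 6 mice too, at -0.49 ± 0.08 (SE, adjusted p = 0.021 by limma). Abca1, another cholesterol exporter, had a slope of -0.17 ± 0.03 (SE, adjusted p = 0.00061 by limma), which did not hold: it was -0.03 under median centring, -0.11 with the slide as a block and -0.07 in the 6 mice, with adjusted p of 0.80, 0.13 and 0.74 by limma. In the 6 mice the slopes of Abcg1 and Pltp were 0.35 and 0.38, with adjusted p of 0.074 and 0.0501 by limma. Under median centring 3 of these genes rose and 1 fell, as did 5945 and 2844 of 27714 probes. There the slope of Apoe turned from -0.15 to 0.04.

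Markers of other cells of the fat pad moved as well, and their part in the members' values was not tested. Of 14 adipocyte markers 13 were expressed with no missing array, as the label of white adipose tissue names. Retn was not fitted, and whether it was dim or lacked an array was not looked up. All 13 fell as Emr1 rose over 10 mice, with a median slope of -0.92, and 3 fell in the 6 mice. Over all probes 26.5% fell over 10 mice and 0.631% in the 6 mice. The log2 of their summed Cy5 level was between 17.67 and 18.19 in mice 4 to 7 and between 18.87 and 19.43 in the others. For the myeloid list this sum was between 18.41 and 18.69 in mice 4 to 7 and between 16.76 and 17.73 in the others. The direction of the adipocyte marker Lpl turned under median centring and on the deposited values, to slopes of 0.08 and 0.01.

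Of the endothelium markers, 10 of 11 fell with Emr1, of the mesothelium markers 7 of 9, and of the blood markers 6 of 7 that were expressed, and none of the 3 lists had a call in the 6 mice. Under median centring 7 endothelium, 6 mesothelium and 3 blood markers fell. In that setting 5945 of 27714 probes rose and 2844 fell. The fibroblast and progenitor markers were divided, with 5 of 10 rising and 3 falling, and 2 rose in the 6 mice, while under median centring 5 rose and 1 fell, and the slope of Dcn turned from -0.17 to 0.06. Of 9 expressed T cell markers 2 rose and 4 fell, and of 5 B cell markers 1 fell, against 0 under median centring and 3 with the slide as a block. Of 7 expressed neutrophil markers, which share Lyz2 with macrophages, 2 rose and none fell, while Ngp, Ltf, Cxcr2, Mmp8 and Mmp9 had no probe in the fit. Of 7 expressed dendritic cell markers 1 rose and 2 fell. Over all probes 23.5% rose and 26.5% fell over 10 mice, and 1.68% and 0.631% in the 6 mice. With the slide as a block 4850 of 27714 probes fell. With so few genes in a list, the T cell, B cell, neutrophil and dendritic cell counts are given as a description.

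**Figure D5:**
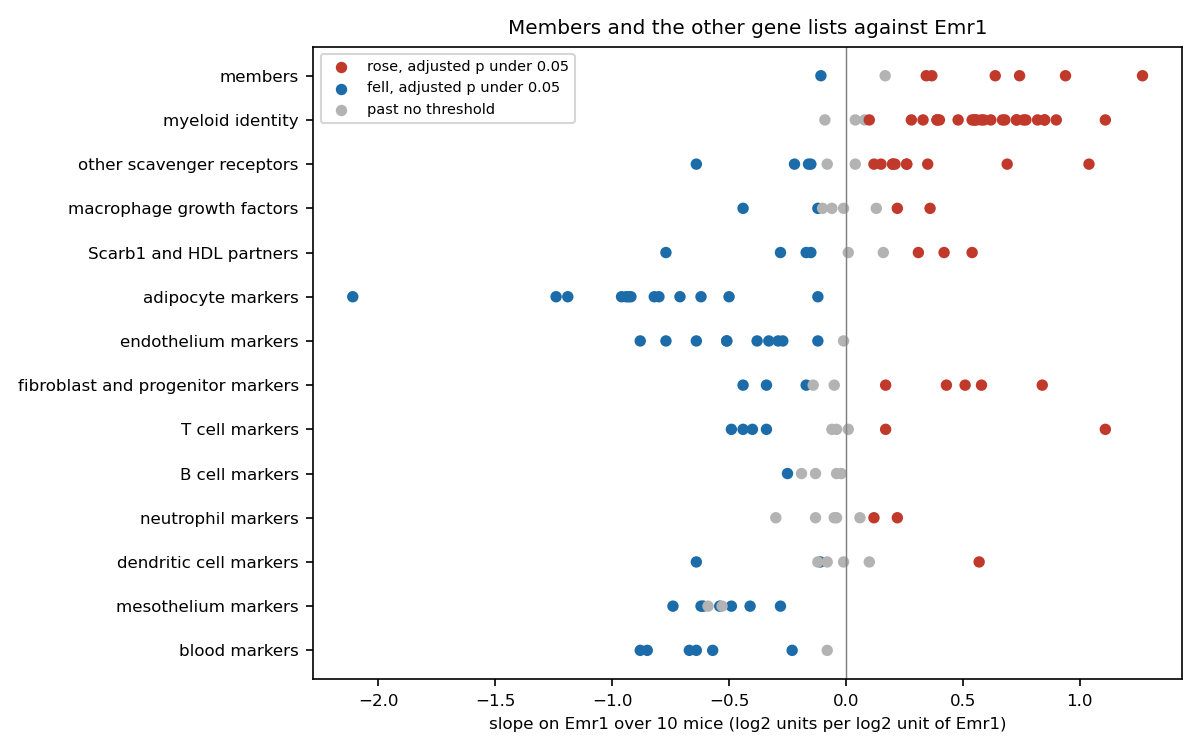
Slope on Emr1 over 10 mice (horizontal axis) of each expressed member and of each expressed gene of the other lists, with a point for each gene. Red points rose and blue points fell at an adjusted p under 0.05, and grey points passed no threshold. The myeloid list had 25 red points of 28 and the adipocyte list 13 blue points of 13, while the members had 6 red, 1 blue and 1 grey.

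Over 12906 expressed genes outside the members, the 10 with a pattern most like that of Emr1, by Pearson's r over the 10 mice, were C5ar1, Rgs10, Cmtm3, Nckap1l, Irf5, Hexa, Egr2, Aprt, Tyrobp and Cd84. Their r lay between 0.995 and 0.998, a measure of likeness across 2 separate sets of mice, and between 0.96 and 0.991 in mice 1, 2, 3, 8, 9 and 10. C5ar1, the receptor for complement C5a, had the highest r, with slopes of 0.99 ± 0.03 (SE) over 10 mice and 0.99 ± 0.09 (SE) over the 6. The 5 most opposed genes were Popdc2, Pck1, Zfp160, Kdsr and Mknk2, with r between -0.996 and -0.991. Pck1, an enzyme of glyceroneogenesis in fat, had a slope of -1.61 ± 0.06 (SE) over 10 mice and -1.54 ± 0.16 (SE) over the 6.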

How the data were processed

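RNA of 10 mice, 1 group, was measured on 2-colour Agilent arrays; the deposited intensity values are spot brightness as the authors' scanner software, Agilent Feature Extraction 10.7.3.1 by the submitters' processing notes, wrote them, without normalization. The same deposited files hold a log10 ratio of Cy5 over Cy3 and flags. The authors also deposited normalized values, taken from their range to be log2, which followed log2 Cy5 (r between 0.993 and 0.999); their centring is not known.

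Mean signals were corrected with normexp (offset 50) and normalized by loess, and channels by Aquantile (limma 3.58.1, R 4.3.3); 2857 outlier spots and all control spots were left out, and spots of a probe averaged. Expressed probes (27807) were those whose Cy5 flag stood above background on 5 or more of the 10 arrays. Probes with a missing array were left out of a fit. A gene of a list was counted as expressed where it had an expressed probe with no missing array. Tests used Benjamini-Hochberg adjustment over all probes and a threshold of 0.05, and were tested on simulated data. Other steps used Python 3.11.15.

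The members and lists were chosen with earlier results of these data known. Named genes were the members, from each list the 2 expressed genes with the highest and the 2 with the lowest r with Emr1, and the 10 highest and 5 lowest of all; those of the marker lists are given as counts. RefSeq names (GRCm38.p6) matched 22289 of 34797 gene names. As the mice lay in 2 sets on the first component, r within 6 mice replaced the planned r over 10. The plan allowed this for a gap in Emr1 itself of 0.4 of its range or more. That gap was 0.385 by the Emr1 probe used and 0.417 by the other, so the change departed from the plan. Mice are separate animals by their labels, and the number of arrays limits the precision. The sequence of 1 probe is not reported here.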

Additional observations from a re-analysis of the deposited data

Results flagged for a closer look

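Of 16 member probes, 1 had a mouse far from the others: in the Olr1 probe the gap between mouse 6, at a log2 ratio of 0.71, and the next mouse was 0.626 of the whole range. This is above Dixon's critical value for 10 mice, and chance alone gives such a gap in about 1 of 20 probes. The Olr1 signal was well above background in 4 of the 10 mice.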

How the results depend on the processing

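The alternatives were other background correction, filters, scaling, the deposited values, the slide as a block, Cd68 in place of Emr1, other probes and leaving out each mouse. For Lyz2, Csf1r, Cd68, Msr1 and Cd5l the slope on Emr1 kept its direction and passed the threshold in every setting run with the brightest probe, and for Stab1 in all but the 6 mice, where it was 0.424. Scarb1 turned to 0.00557 under median centring and 0.00462 in the 6 mice; its r with Emr1, 0.0239 in the 6 mice, was -0.744 over all 10 mice, -0.784 over all 10 with the slide as a block, -0.194 in the 6 mice on the deposited values, and between -0.339 without mouse 1 and 0.742 without mouse 2.

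The 14964 probes that varied more in Cy5 became 4675 without normalization between arrays. The 6523 that rose and 7347 that fell with Emr1 became 3788 and 4850 with the slide as a block and 467 and 175 in the 6 mice. Under median centring 5945 rose and 2844 fell; there the median log2 ratio of expressed probes was between -0.112 and 0.467 over the mice, against -0.001 to 0.019. The cause of these changes was not tested. The fit in the 6 mice had fewer mice, a narrower range of Emr1 and only 1 of the 2 sets, which cannot be told apart. The slide test called between 0 and 59 probes when a mouse was left out, 59 without mouse 1. The other probe of Emr1, as a reference for r, was added after seeing the data. With 1 group, no mice could be paired across groups by replicate number.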
